A study of Mus musculus with 194 samples.

Results

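Imprinted genes are expressed from 1 parental chromosome, and 9 of them were followed here through calling cards, in which transposons left in the genome of living cells record where the transposase that moved them had been. The members were Snrpn, Ube3a, Ndn, Magel2, Dlk1, Rtl1, Peg3, Peg10 and Zrsr1. They were chosen by name, and each was counted over its gene body and 10 kb on either side in the GRCm38 mouse assembly, as insertions per 1000000 insertions of the same table (IPM). They are 9 of 21633 genes counted in this way and held 11018 of the 21931733 insertions in all tables. The tables do not tell the parental chromosomes apart, so each value sums both alleles.

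The study built a viral toolkit for recording contacts between transcription factors and DNA in mouse tissue, and its tables cover 46 animals in 11 groups and 1 pooled table of N2a cells, a mouse neuroblastoma line. All the animals received adeno-associated virus at postnatal day 0 to 1. Cortex was the tissue in 10 of the groups, cut into 10 pieces for each of their RNA libraries. In 43 animals insertions were read from the RNA of a self-reporting transposon, and in the 3 BrokenHeart animals from cortical DNA by inverse PCR. The 2 C57bl6J mice carried viruses that need no Cre. The Syn1Cre group (6 animals) and the GFAPCre group (6 animals) are named for Cre lines whose promoters are known to be used in neurons and in astrocytes, and 6 Syn1CreNeg and 6 GFAPCreNeg animals are the matching Cre-negative groups. The Syn1Cre_SP1_P28 group (4 animals) and the Syn1Cre_SP1_P10 group (3 animals) carry SP1, a transcription factor that binds GC boxes, in their names, with postnatal days 28 and 10. In the Rbp4Cre_TRAP group (4 animals) RNA came from whole forebrain, named for the Rbp4 line, whose Cre is known from layer 5 neurons of the cortex, and for TRAP, which pulls down RNA on tagged ribosomes. The Frontflip_GFAPCre and Frontflip_GFAPCreNeg groups (3 animals each) used a construct that the labels name only as Frontflip. The labels give no ages for the groups without SP1, no sexes, and no word on litters, so p-values measure the spread between these animals.

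Snrpn, Ube3a, Ndn and Magel2 lie in the chromosome 7 region that matches the human Prader-Willi and Angelman region. Snrpn encodes a splicing protein, Ndn and Magel2 encode MAGE family proteins and all of these are expressed from the paternal allele, while Ube3a, a ubiquitin ligase, is known to be expressed in neurons from the maternal allele because a long paternal transcript, part of Snhg14, runs against it. Dlk1, a Notch-related membrane protein, and Rtl1, a gene derived from a retrotransposon, are paternally expressed genes of a cluster on chromosome 12 that also holds the maternal RNA Meg3. Peg3, a zinc finger protein, Peg10, another gene of retrotransposon origin, and Zrsr1, a retroposed splicing factor gene within an intron of Commd1, are paternally expressed genes elsewhere. The labels do not name the transposase. In calling cards, a transposase fused to a transcription factor is known to add insertions near that factor's sites.

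The RefSeq promoters of 3 members are shown, since the transposon inserts at TTAA and every insertion in these windows lay on the first base of a TTAA. Each runs from 250 bases before to 50 bases after the annotated start in GRCm38.p6. Capitals mark TTAA and the GC box GGGCGG or its reverse complement CCGCCC. The Magel2 window is chr7:62376729-62377028 on the plus strand, the Ndn window chr7:62348027-62348326 on the plus strand, and the Snrpn window, the most downstream of 4 annotated starts, chr7:60005150-60005449 on the minus strand.
Magel2: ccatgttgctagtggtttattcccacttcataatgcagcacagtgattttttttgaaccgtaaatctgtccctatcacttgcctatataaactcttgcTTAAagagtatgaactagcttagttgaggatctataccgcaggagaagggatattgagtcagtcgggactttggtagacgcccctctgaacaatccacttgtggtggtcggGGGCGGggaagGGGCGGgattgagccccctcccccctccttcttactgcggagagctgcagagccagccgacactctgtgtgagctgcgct
Ndn: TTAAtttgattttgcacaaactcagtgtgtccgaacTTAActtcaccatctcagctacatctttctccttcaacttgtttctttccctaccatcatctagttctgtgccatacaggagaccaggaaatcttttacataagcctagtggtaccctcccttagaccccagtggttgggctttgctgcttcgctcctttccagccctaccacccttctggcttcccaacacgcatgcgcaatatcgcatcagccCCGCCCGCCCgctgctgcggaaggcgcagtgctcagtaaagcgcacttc
Snrpn: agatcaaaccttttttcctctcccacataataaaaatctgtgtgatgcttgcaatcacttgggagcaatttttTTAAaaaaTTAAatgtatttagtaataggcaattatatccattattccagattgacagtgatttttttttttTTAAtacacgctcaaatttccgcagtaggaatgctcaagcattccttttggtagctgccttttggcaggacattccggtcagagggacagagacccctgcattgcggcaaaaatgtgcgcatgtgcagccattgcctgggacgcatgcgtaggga
The Magel2 window held 1 TTAA, 152 bases before the start, and 39 insertions of the animals lay on it. Of those, 12 were in Syn1Cre, 6 in each of C57bl6J, GFAPCre and Syn1Cre_SP1_P10, 5 in Syn1Cre_SP1_P28, and 2 in each of GFAPCreNeg and Frontflip_GFAPCre. It was the most used position of the Magel2 locus, in 22 animals. The Ndn window has 2 TTAA, of which the outer, 250 bases before the start, held 4 insertions and the inner, 214 bases before it, held 0. The 3 TTAA of the Snrpn window, 177, 169 and 105 bases before that start, held 21, 8 and 29 insertions of the animals. Magel2 has 2 separate GC boxes in this window, Ndn has 2 that overlap, Ube3a has 2 and Zrsr1 has 1. The windows of Snrpn, Dlk1 and Peg3 have none, and GC boxes of this spelling occur in 35.7% of the 32851 RefSeq promoter windows and TTAA in 52.4%. A match is a description of these letters and not a bound site.

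The depth ranged widely. Tables held 1545951 and 2186743 insertions in C57bl6J, 443158 to 1364948 in Syn1Cre, 600443 to 1505413 in GFAPCre, 208057 to 597230 in GFAPCreNeg and 97519 to 556145 in Syn1CreNeg. Those of Syn1Cre_SP1_P28 held 108965 to 577609, of Syn1Cre_SP1_P10 86842 to 95331, of BrokenHeart 42511 to 98197, of Rbp4Cre_TRAP 24408 to 57014, of Frontflip_GFAPCre 160631 to 205559, and of N2a 806653. The 3 Frontflip_GFAPCreNeg tables, with 2341 to 9601 insertions, were too shallow to be compared. Summed over 20 neuronal marker genes, all RNA-read groups compared here had 3667 to 7211 IPM. Over 18 astrocyte markers, the sums were 1139 to 3446 in Syn1Cre, 1403 to 2788 in GFAPCre, 3578 to 4689 in Syn1CreNeg and 536 to 983 in Rbp4Cre_TRAP. In tissue, more cells of a type and more insertions per cell cannot be told apart.

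Snrpn had the highest mean level of the members in every cortical RNA group compared here other than Syn1Cre_SP1_P10, where Peg10 was higher. In Syn1Cre its level ran from 131 through a median of 180 to 204 IPM, and in GFAPCre from 161 through 182 to 229. Its locus is also the longest, since the annotated gene spans chr7:59982495-60450177. Per kilobase, the mean of Syn1Cre was 0.359 IPM for Snrpn, below Ube3a with 0.884, Rtl1 with 1.53, Zrsr1 with 1.70, Ndn with 1.44, Peg10 with 0.850, Magel2 with 0.763 and Peg3 with 0.703. Dlk1, with 0.189, was the lowest of the 9 in Syn1Cre. Its 33 insertions in the 6 Syn1Cre animals were the most in any group of animals, and no comparison had enough of them for the test.

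**Figure D1:**
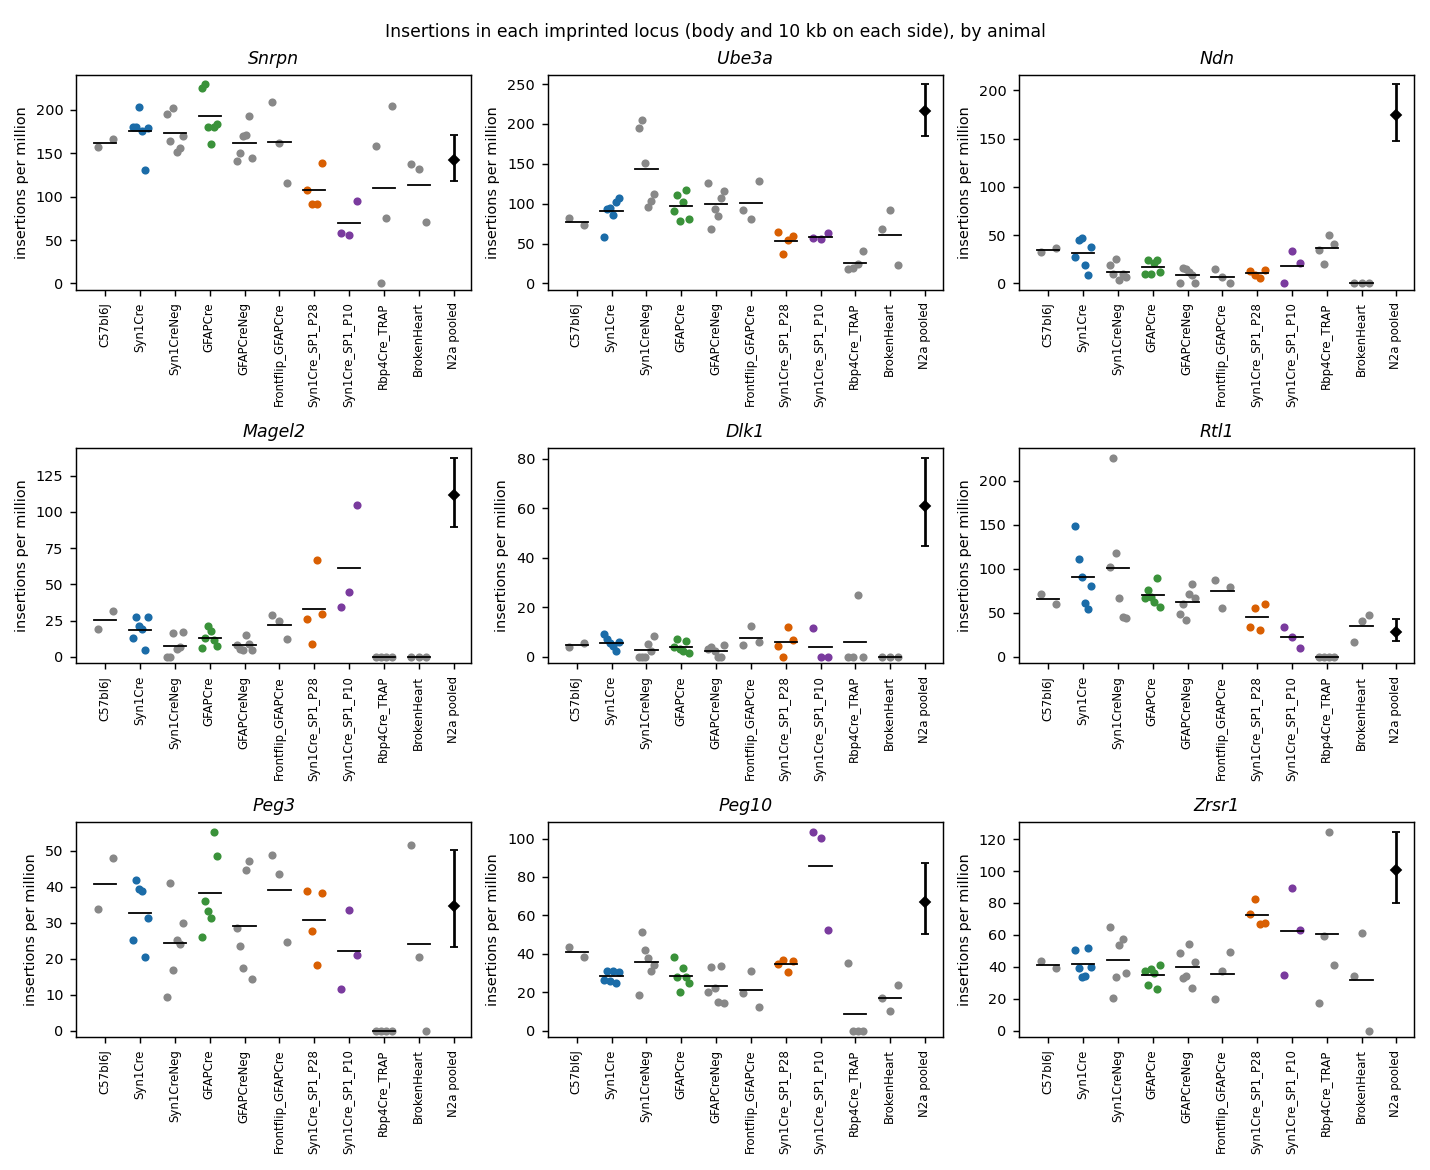
IPM at each of the 9 loci, with 1 point per animal, a line at the mean of each group and a diamond with its 95% exact counting interval for the pooled N2a table; the Frontflip_GFAPCreNeg group is left out. The levels of Snrpn lie lowest in Syn1Cre_SP1_P10 among the group means, and Rtl1 and Peg3 are at 0 in every Rbp4Cre_TRAP animal.

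In the order of group means, most neighbours lay within their spread. Snrpn ran from GFAPCre (193 ± 27.4 IPM, SD, n = 6) through Syn1Cre (175 ± 23.9) and Syn1CreNeg (173 ± 20.9) down to Syn1Cre_SP1_P28 (107 ± 22.2, n = 4) and Syn1Cre_SP1_P10 (69.2 ± 21.8, n = 3). The only neighbours in its order of 10 groups whose animals did not overlap were GFAPCreNeg (161 ± 19.9, n = 6) and BrokenHeart (113 ± 37.2, n = 3), which stand on either side of a step. Ube3a was highest in Syn1CreNeg (144 ± 47.9, n = 6) and lowest in Rbp4Cre_TRAP (25.8 ± 10.6, n = 4). Ndn was highest in Rbp4Cre_TRAP (36.5 ± 12.6, n = 4, from 6 insertions in all), C57bl6J (34.8 ± 2.54, n = 2) and Syn1Cre (31.1 ± 15.2, n = 6), which did not differ beyond their spread. Magel2 was highest in Syn1Cre_SP1_P10 (61.3 ± 38.1, n = 3) and Peg10 likewise (85.4 ± 28.6, n = 3), and for Peg10 the animals of that group did not overlap with those of the next, C57bl6J (40.9 ± 3.48, n = 2). Zrsr1 was highest in Syn1Cre_SP1_P28 (72.6 ± 7.29, n = 4). Among C57bl6J, Syn1Cre, Syn1CreNeg, GFAPCre and GFAPCreNeg its means ran from 34.5 ± 5.92 in GFAPCre to 44.5 ± 17.0 in Syn1CreNeg, and the differences lay within the spread.

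The first comparison asks whether Syn1Cre and GFAPCre differ at these genes, and no member was called different. Of the markers, 6 of 19 neuronal ones were called higher in Syn1Cre and 0 lower, and 0 of 17 astrocyte ones were called. The comparison is thus between Cre lines and not between sorted neurons and astrocytes. Ndn had a median of 33.1 IPM in Syn1Cre, with a lowest animal of 9.03 and a highest of 47.0, against 9.31, 16.7 and 24.4 as lowest, median and highest in GFAPCre. The groups overlapped, since Syn1Cre animal 5 lay below every GFAPCre animal. The log2 difference was 0.82 (SE 0.28, adjusted p = 0.117; edgeR's quasi-likelihood test with Benjamini-Hochberg adjustment over all loci tested, as for every adjusted p in the report). Magel2, its neighbour, had medians of 20.2 and 12.3 and a log2 difference of 0.64 (SE 0.29, adjusted p = 0.244). Of the 8 members tested, 0 were called, where 2.15% of 11554 loci were, and Ndn and Magel2 were the 2 with an unadjusted p under 0.05. DESeq2 called 0 as well. Ndn passed the threshold when Syn1Cre animal 5 was left out (0.92, adjusted p = 0.015). Among the animals whose titles have the earlier of the 2 layouts found in the labels, it differed by 1.08 (adjusted p = 0.0035) and Rtl1 by 0.59 (adjusted p = 0.0062). In the fit of those animals, 13.1% of 12519 loci were called. Snrpn, at −0.20 (SE 0.11, adjusted p = 0.365), Ube3a, at −0.16 (0.14, 0.599), and Peg3, at −0.18 (0.19, 0.670), had values below 0.

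Against the Cre-negative animals of their own line, Ube3a was the member that was called, lower in Syn1Cre. The Syn1Cre animals had 58.5 to 108 IPM at Ube3a, with a median of 94.1, and the Syn1CreNeg animals 95.3 to 205, with a median of 132. Syn1CreNeg animals 1 to 3, whose tables held 97519 to 119059 insertions, had 195, 205 and 151, and animals 4 to 6, with 417832 to 556145, had 95.3, 103 and 113. The log2 difference was −0.47 (SE 0.18, adjusted p = 0.048), among 6 members tested, where 31% of 8614 loci were called and 17.5% were called lower. The call did not survive scaling to total insertions (−0.45, adjusted p = 0.052), DESeq2 (−0.53, adjusted p = 0.061) or the layout of the titles as a block (−0.43, adjusted p = 0.058), and it held in 7 of 22 alternatives. Among the animals of the earlier layout, animals 1 to 3 of each group, the difference was −1.15 (adjusted p = 0.0015), and among those of the later layout −0.03 (adjusted p = 0.906). The fit of the earlier layout called 11.7% of 8254 loci. Astrocyte markers moved in the same direction, with 14 of 15 tested called lower and summed levels of 1139 to 3446 against 3578 to 4689. Of 17 neuronal markers tested, 9 were called higher in Syn1Cre and 1 lower. The part of these marker shifts in the Ube3a value was not tested.

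Ndn and Magel2 had too few insertions in the Cre-negative animals to pass the filter on low counts. Ndn held 180 insertions in the Syn1Cre animals and 15 in Syn1CreNeg, where the animals had 3.60 to 25.2 IPM. Magel2 held 115 against 16, with 0 to 17.0 IPM in Syn1CreNeg. Without the filter, which left 20447 loci and called 14.6% of them, Ndn was higher in Syn1Cre by 1.82 (SE 0.36, adjusted p = 3.9e-05) and Magel2 by 1.10 (SE 0.39, adjusted p = 0.036), and DESeq2 called Ndn as well (1.74, adjusted p = 0.0058). Genes with so few Cre-negative insertions enter a test only through their high group, so these calls are given as an alternative and support nothing further. Of the other members, Peg3 differed by 0.39 (SE 0.25, adjusted p = 0.230), Rtl1 by 0.26 (0.27, 0.495), Peg10 by −0.31 (0.20, 0.288) and Zrsr1 by −0.26 (0.20, 0.340), and none of these was called.

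GFAPCre and its Cre-negative animals were not told apart at any member. Snrpn had lowest, median and highest levels of 161, 182 and 229 IPM in GFAPCre and 141, 160 and 192 in GFAPCreNeg, and the groups overlapped. The log2 difference was 0.28 (SE 0.12, adjusted p = 0.134), and it was the 1 member with an unadjusted p under 0.05. Of 6 members tested 0 were called, where 8.19% of 9205 loci were, and DESeq2 called 0 of the 5 to which it gave an adjusted p, Peg10 being left without one. Ndn again had few Cre-negative insertions, 23 against 92, and without the filter differed by 0.93 (SE 0.34, adjusted p = 0.099). Of 16 astrocyte markers tested 0 were called higher in GFAPCre and 7 lower, with sums of 1403 to 2788 against 2614 to 5234 IPM. Of 16 neuronal markers 3 were called higher and 1 lower. Between the Cre-negative groups, 0 of 6 members were called by edgeR and 0 by DESeq2, where 0.0426% of 7042 loci were. Peg10, with a median of 21.1 in GFAPCreNeg and 35.9 in Syn1CreNeg, had an unadjusted p under 0.05 there (−0.52, SE 0.26, adjusted p = 0.430).

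Syn1Cre_SP1_P28 and Syn1Cre_SP1_P10 were set against Syn1Cre to ask what the SP1 construct adds, and Snrpn and Ube3a were called lower at both ages. Rtl1 was also called lower at both, but at P10 it passed the filter on low counts only through Syn1Cre. At Snrpn the 4 Syn1Cre_SP1_P28 animals had 108, 91.8, 91.1 and 139 IPM, and the 3 Syn1Cre_SP1_P10 animals 57.6, 55.7 and 94.4. Every P10 animal lay below the lowest Syn1Cre animal (131), as at 13.5% of all loci tested at P10. So did 3 of the P28 animals. Snrpn fell by 1.10 on the log2 scale at P28 (SE 0.17, adjusted p = 8.4e-06), or 2.14-fold as scaled with the TMM factors of the fit. At P10 it fell by 1.86 (SE 0.27, adjusted p = 3.3e-06), or 3.64-fold on that scale. The mean IPM, relative to total insertions, was 175 in Syn1Cre, 107 at P28 and 69.2 at P10. Ube3a had 64.7, 36.7, 54.7 and 58.9 at P28, and 57.6, 55.7 and 62.9 at P10, where 2 P28 animals and 1 P10 animal lay above the lowest Syn1Cre animal (58.5). Ube3a fell by 1.14 at P28 (SE 0.22, adjusted p = 1.4e-04) and by 1.15 at P10 (SE 0.35, adjusted p = 0.0095). Both are long genes, and their insertions were not even along the locus. For Snrpn, the densest 20 kb held 21.7% of the insertions in Syn1Cre and 26.9% at P28. For Ube3a, the 10 kb above the lower gene end held 24.5% and 45.2%.

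Rtl1 was lower in both SP1 groups as well. Its P28 animals had 34.5, 55.1, 30.4 and 60.6 IPM, and its P10 animals 34.5, 22.3 and 10.5, from 3, 2 and 1 insertions. The P10 animals all lay below the Syn1Cre range of 54.2 to 149, as at 13.5% of all loci tested at P10. Of the P28 animals, 2 lay within it. Rtl1 fell by 1.36 at P28 (SE 0.27, adjusted p = 1.7e-04) and fell by 2.55 at P10 (SE 0.53, adjusted p = 3.7e-04). At P10 Rtl1 passed the filter only through Syn1Cre, so that call supports nothing further. Its cluster neighbour Dlk1 had 7 insertions in the P28 animals and 1 in the P10 animals, too few to be tested.

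Ndn and Magel2, which lie beside each other, had different values in these groups. Ndn was at 12.9, 9.18, 6.07 and 13.9 IPM in the P28 animals, from 3, 1, 1 and 8 insertions, with 3 animals in the lower part of the Syn1Cre range of 9.03 to 47.0 and 1 below it. It fell by 1.88 (SE 0.45, adjusted p = 9.9e-04) at P28, a call that was lost when distinct positions were counted (−1.05, adjusted p = 0.054). At P28 Ndn passed the filter on low counts only through Syn1Cre, so that call supports nothing further. At P10, with 0, 33.4 and 21.0, it differed by −1.33 (SE 0.74, adjusted p = 0.15). Magel2 was at 25.9, 9.18, 66.8 and 29.4 at P28 and at 34.5, 44.6 and 105 at P10, from 3, 4 and 10 insertions. All 3 P10 animals lay above the highest Syn1Cre animal (27.4), as at 30.1% of all loci tested in this comparison. The log2 difference of Magel2 was 0.19 at P28 (SE 0.36, adjusted p = 0.673) and 1.07 at P10 (SE 0.50, adjusted p = 0.0845), neither past the threshold. All SP1 animals have the earlier title layout, which Syn1Cre animals 1 to 3 share. Against those 3 animals alone, Ndn (−1.66, adjusted p = 0.014), Magel2 (1.03, adjusted p = 0.042) and Peg3 (−1.23, adjusted p = 0.049) were also called at P10, which made 7 of 8 members where 53.6% of 9214 loci were called. In that fit Ndn, Peg3 and Rtl1 passed the filter only through Syn1Cre, so their calls support nothing further.

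Peg10 was the member that was higher. The P10 animals had 104, 100 and 52.4 IPM, from 9, 9 and 5 insertions, and the P28 animals 34.5, 36.7, 30.4 and 36.4. Each P10 animal lay above the Syn1Cre range of 24.8 to 31.0, as at 30.1% of all loci tested at P10. Peg10 rose by 1.02 at P10 (SE 0.33, adjusted p = 0.015), but the adjusted p was 0.132 without P10 animal 1 and 0.127 without P10 animal 2. At P28 it differed by −0.19 (SE 0.24, adjusted p = 0.544) with the TMM factors and by 0.28 relative to total insertions.

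Peg3 had 38.8, 27.5, 18.2 and 38.1 IPM at P28 and 11.5, 33.4 and 21.0 at P10, and differed by −0.48 (SE 0.28, adjusted p = 0.148) at P28 and −1.15 (SE 0.53, adjusted p = 0.0857) at P10. Zrsr1 had 73.3, 82.6, 66.8 and 67.5 at P28, all above the highest Syn1Cre animal (51.9), as at 31.5% of all loci tested there. Its log2 difference was 0.33 (SE 0.21, adjusted p = 0.175), and at P10, with 34.5, 89.1 and 62.9, it was 0.10 (SE 0.36, adjusted p = 0.846). In all, 4 of 8 tested members were lower and 0 higher at P28, where 25.3% of 12054 loci were called lower, 26.2% higher and 51.5% in either direction. At P10, 3 of 8 were lower and 1 higher, where 20.7% of 12788 loci were called lower, 20.1% higher and 40.7% in either direction. Ndn in the P28 count and Rtl1 in the P10 count passed the filter only through Syn1Cre, so they are not support for a lower level of the members. The members' median log2 difference was −0.79 at P28 and −1.15 at P10, against −0.06 and −0.26 over all loci tested.

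**Figure D2:**
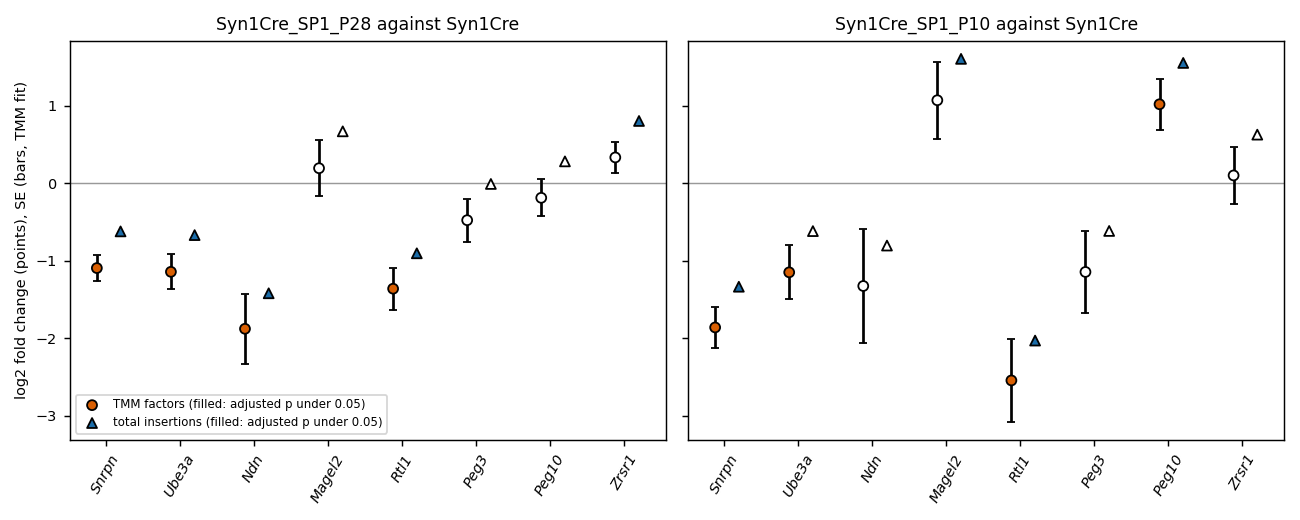
Log2 difference of each tested member in Syn1Cre_SP1_P28 and Syn1Cre_SP1_P10 against Syn1Cre, as circles with SE bars under TMM scaling and triangles relative to total insertions; filled symbols have an adjusted p under 0.05. Snrpn and Rtl1 are filled below 0 under both scalings at both ages, and Zrsr1 at P28 and Magel2 at P10 are filled above 0 only relative to total insertions.

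The scaling bears on these values, since the median of all loci moved from −0.06 with TMM factors to 0.42 relative to total insertions at P28 and from −0.26 to 0.27 at P10. Among called loci, the share higher in the SP1 group was 50.9% with TMM and 80.3% without at P28, and 49.3% and 76.1% at P10. Relative to total insertions, Zrsr1 was called higher at P28 (0.80, adjusted p = 0.0025) and Magel2 at P10 (1.61, adjusted p = 0.012), and Ube3a at P10 was not called (−0.62, adjusted p = 0.174). Neuronal markers split in both directions, with 4 of 20 called higher and 9 lower at P28 and 5 and 10 at P10, and 5 of 18 astrocyte markers were higher at P28. The part of age, construct, sequencing pool and marker shifts in the members' values cannot be told apart. The P28 and P10 comparisons share the Syn1Cre animals. Between P28 and P10 themselves, only Snrpn had enough insertions to be tested and differed by 0.87 (SE 0.34, adjusted p = 0.092), with 0 of 1 members called where 11.1% of 3459 loci were, and an unadjusted p under 0.05. DESeq2 gave it no adjusted p.

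Insertions within 1 kb of either gene end were counted apart, a window chosen after the positions of the insertions had been seen. Such insertions were 9.90% of those in all loci in Syn1Cre, 20.7% in Syn1Cre_SP1_P28 and 25.5% in Syn1Cre_SP1_P10. At Magel2 they were 43.5%, 65.7% and 76.5% of the locus. The near-end level of Magel2 was 8.30 ± 2.86 IPM in Syn1Cre (SD, n = 6), 22.6 ± 14.2 at P28 (n = 4) and 46.8 ± 32.6 at P10 (n = 3). Peg10 had 3.55 ± 2.94, 6.27 ± 4.54 and 29.8 ± 14.1, and Ndn 8.93 ± 3.97, 2.73 ± 4.38 and 0. At Ube3a, lower over its whole locus, the mean near-end IPM, relative to total insertions, was not lower. It was 8.05 ± 4.02 in Syn1Cre, 14.3 ± 11.04 at P28 and 14.7 ± 12.7 at P10, from 51, 19 and 4 insertions. Those were 10.1%, 30.6% and 25.0% of its insertions. With TMM factors and no filter, its near-end difference was −0.33 at P28 (adjusted p = 0.518) and −1.30 at P10 (adjusted p = 0.162). The medians of all loci in those fits were −0.66 and −1.32. Ube3a was called near its ends in none of the fits that tested it. With TMM factors fitted on the near-end counts, Magel2 differed at P10 by 0.28 (adjusted p = 0.610) and Peg10 by 1.10 (adjusted p = 0.126), where 60.2% of loci tested were called. Relative to total insertions they were higher by 2.39 (adjusted p = 7.5e-05) and 3.19 (adjusted p = 9.1e-05), where 68% of loci tested were called and the median of all loci was itself 2.02. Without the filter, Ndn, with 2 insertions near its ends at P28 against 52, was called lower (−3.38, SE 0.72, adjusted p = 1.0e-05), and so was Rtl1, with 2 against 29 (−2.55, SE 0.87, adjusted p = 0.010). In that fit 20.3% of loci were called, and the median of all loci was −0.66. Relative to total insertions and without the filter, Ndn stayed lower (−2.23, adjusted p = 0.018), Rtl1 was not called (−1.41, adjusted p = 0.287) and Magel2 was higher (1.24, adjusted p = 0.0077), where 27.5% of loci were called and the median of all loci was 0.56. With 2 insertions in the lower group, the calls of Ndn and Rtl1 support nothing further.

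The profiles along the loci show where these insertions lay. In Magel2, the 2 kb just below the lower gene end, which hold the printed promoter, had 2.96 IPM per kilobase in Syn1Cre, 9.23 in Syn1Cre_SP1_P28 and 23.9 in Syn1Cre_SP1_P10, from 33, 20 and 13 insertions. At Peg10 the matching 2 kb had 5.65, 5.54 and 22.1. In Syn1Cre the densest 2 kb of Magel2 lay elsewhere, 8 to 10 kb below the lower end. At Ndn, the 2 kb from 2 to 4 kb above the lower end, just past the short gene, held 55.0% of the Syn1Cre insertions of the locus and 53.8% of the P28 insertions.

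**Figure D3:**
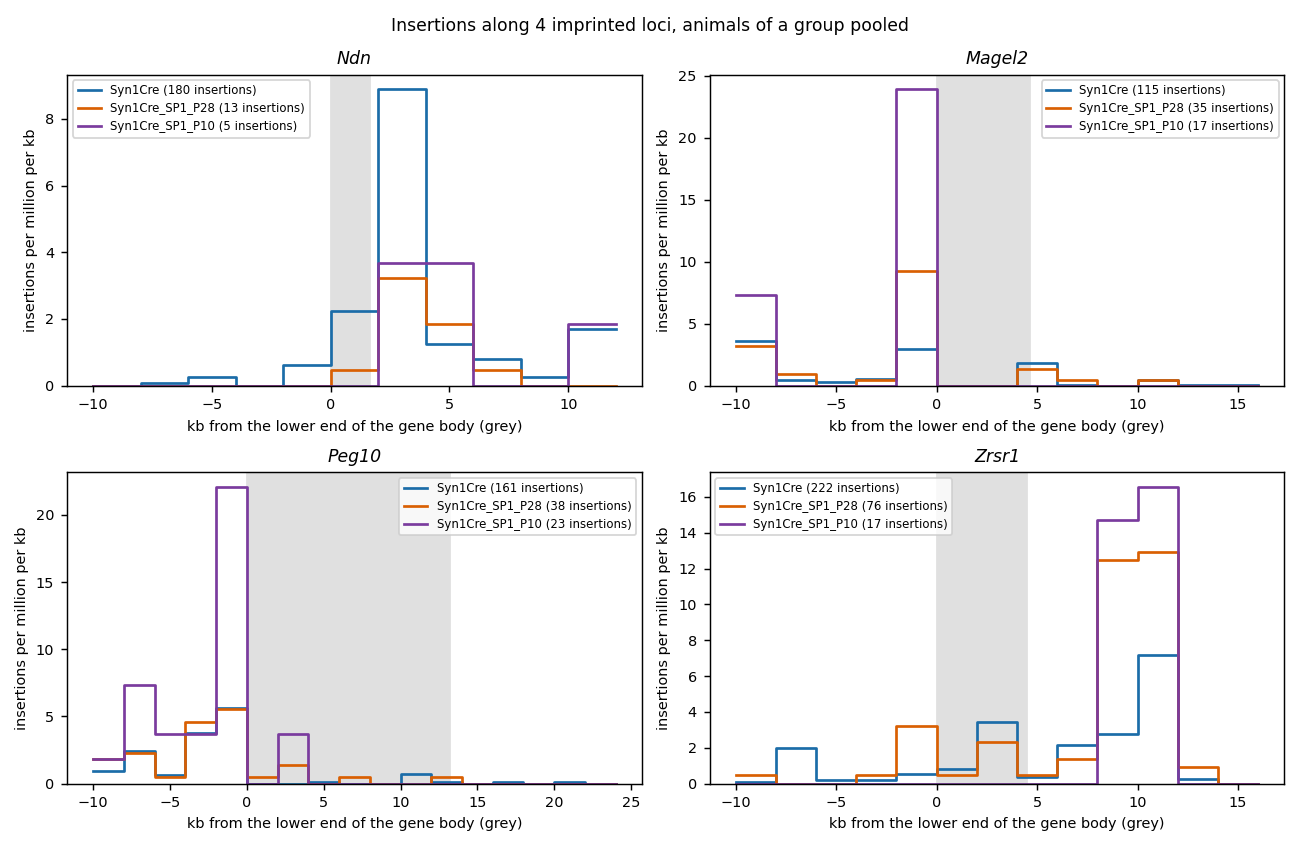
IPM per kilobase in 2 kb bins, against distance in kb from the lower gene end, for Ndn, Magel2, Peg10 and Zrsr1 in Syn1Cre, Syn1Cre_SP1_P28 and Syn1Cre_SP1_P10, each pooled over its animals. The bin just below the lower end of Magel2 and of Peg10 is highest in Syn1Cre_SP1_P10, at 23.9 and 22.1.

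In the Rbp4Cre_TRAP animals, Rtl1 was without insertions. All 4 animals were at 0, against 54.2 to 149 IPM in Syn1Cre and 57.2 to 89.4 in GFAPCre, from 496 and 367 insertions. Set against a floor of 3 insertions over the 4 animals, Rtl1 was at least 5.10-fold lower than in Syn1Cre (adjusted p = 0.0028) and at least 4.04-fold lower than in GFAPCre (adjusted p = 1.1e-04). Peg3 was also at 0 in all 4, at least 1.96-fold lower than in Syn1Cre (adjusted p = 0.053, not called) and at least 2.11-fold lower than in GFAPCre (adjusted p = 0.014). Magel2 had 0 insertions against 115 in Syn1Cre, at least 1.18-fold lower, which was not called (adjusted p = 0.189). Members at 0 in Rbp4Cre_TRAP entered the test only through the other group, so their calls are descriptions and support nothing further.

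Ube3a had 1 insertion in each Rbp4Cre_TRAP animal, or 17.5, 19.9, 25.0 and 41.0 IPM. All 4 lay below every Syn1Cre and every GFAPCre animal, as at 6.98% and 8.16% of all loci tested. Ube3a fell by 2.19 against Syn1Cre (SE 0.56, adjusted p = 0.030) and by 2.29 against GFAPCre (SE 0.53, adjusted p = 0.0025). Snrpn had 158, 0, 74.9 and 205 IPM, from 9, 0, 3 and 5 insertions, a spread as wide as the Syn1Cre level itself. Its difference was −1.07 against Syn1Cre (SE 0.36, adjusted p = 0.110) and it was called lower against GFAPCre (−1.21, SE 0.33, adjusted p = 0.013), though not without Rbp4Cre_TRAP animal 2 (−0.80, adjusted p = 0.167) or animal 3 (−1.18, adjusted p = 0.052).

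Ndn and Zrsr1 had insertions in all 4 Rbp4Cre_TRAP animals and were not called. Ndn had 35.1, 19.9, 49.9 and 41.0 IPM, from 2, 1, 2 and 1 insertions, and its difference was −0.12 against Syn1Cre (SE 0.70, adjusted p = 0.956) and 0.75 against GFAPCre (SE 0.70, adjusted p = 0.609). Zrsr1 had 17.5, 59.6, 125 and 41.0 and differed by 0.29 (SE 0.49, adjusted p = 0.833) and 0.54 (SE 0.51, adjusted p = 0.617). With so few insertions the errors leave room for large differences. Against Syn1Cre 2 of 8 tested members were lower and 0 higher, where 1.94% of 10694 loci were called lower and 2.13% in either direction. Against GFAPCre 4 of 7 were lower, where 5.25% of 10392 loci were lower and 5.99% called in either direction. Rtl1 in the first count, and Rtl1 and Peg3 in the second, are the members at 0, so these counts are not support for a lower level of the members. In the second count, Snrpn also passed the filter only through GFAPCre.

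The calls moved with the settings. Against Syn1Cre, Ube3a lost its call relative to total insertions (adjusted p = 0.072), with DESeq2 (adjusted p = 0.065) and without any 1 of the 4 Rbp4Cre_TRAP animals (adjusted p between 0.059 and 0.0998), and held it in 5 of 17 alternatives. Against GFAPCre, Ube3a was called in 17 of 17 alternatives, with a highest adjusted p of 0.042. Peg3 against GFAPCre was not called without Rbp4Cre_TRAP animal 2 (adjusted p = 0.051), and Snrpn against GFAPCre lost its call relative to total insertions (adjusted p = 0.086). Summed astrocyte markers were 536 to 983 IPM in Rbp4Cre_TRAP, below every animal of Syn1Cre and GFAPCre, with 2 of 15 and 8 of 16 called lower. The tissue (whole forebrain) and the ribosome pull-down differ from the cortical groups together with the Cre line, so their parts cannot be told apart.

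DNA-read insertions in the BrokenHeart animals gave few insertions at the members. Ndn and Magel2 were at 0 in all 3 animals, against 33.0 and 36.6 IPM for Ndn and 19.4 and 31.6 for Magel2 in C57bl6J. With the filter, only Snrpn was tested, and at 137, 132 and 70.6 against 157 and 166 it differed by −0.49 (SE 0.29, adjusted p = 0.179). So 0 of 1 members were called by edgeR, 0 by DESeq2 and 0 had an unadjusted p under 0.05, where 39.8% of 1880 loci were called. Without the filter, which called 6.69% of loci, Ndn was at least 2.33-fold lower (adjusted p = 0.0015), Magel2 at least 1.76-fold lower (adjusted p = 0.0088) and Snrpn lower by 1.02 on the log2 scale (SE 0.31, adjusted p = 0.022). Ndn and Magel2 entered that fit only through C57bl6J, so their calls support nothing further. Of 13 neuronal markers tested 8 were called lower in BrokenHeart and 1 higher, with sums of 3129 to 3798 IPM against 5049 to 5302, and their part in the member values was not tested.

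Frontflip_GFAPCre was not told apart from GFAPCre at any member. Magel2 had 29.2, 24.9 and 12.2 IPM against 6.21 to 21.7, a difference of 0.88 (SE 0.55, adjusted p = 0.503). Ndn had 14.6, 6.23 and 0 and differed by −1.14 (SE 0.76, adjusted p = 0.540), and the other 6 tested members had values between −0.43 and 0.16. Of 8 members tested, 0 were called by edgeR and 0 had an unadjusted p under 0.05, where 1.75% of 10527 loci were called. DESeq2 called 0 of the 4 to which it gave an adjusted p, with Ndn, Magel2, Peg10 and Zrsr1 left without one.

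C57bl6J, whose viruses need no Cre, was not told apart from Syn1Cre at any member. Peg10 had the lowest adjusted p, at 43.3 and 38.4 IPM against a Syn1Cre range of 24.8 to 31.0, so that both C57bl6J animals lay above every Syn1Cre animal, as at 4.09% of all loci tested. The difference was 0.63 (SE 0.17, adjusted p = 0.084). Peg10 and Peg3 (0.43, SE 0.21, adjusted p = 0.366) were the 2 members with an unadjusted p under 0.05. Of 8 tested, 0 were called by edgeR, where 0.796% of 14446 loci were called, and 0 by DESeq2 of the 7 to which it gave an adjusted p, Magel2 being left without one. Among the animals of the earlier title layout, Peg10 was called higher (0.75, adjusted p = 0.0066) and Rtl1 lower (−0.62, adjusted p = 0.0017). The share of all loci called in that fit is not given here, so these calls support nothing further.

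The positions of the insertions differed between the members, and over all animals most were not in the short gene bodies. At Ndn, chr7:62348277-62349928, 88.7% of insertions lay in the flank above the gene and 8.10% in its body, which is 7.63% of the locus. At Magel2, chr7:62376979-62381640, 77.4% lay in the flank below the gene, and at Peg10, chr6:4747306-4760517, 93.3%. Zrsr1, chr11:22972005-22976496, had 68.0% in the flank above, most of which lies within Commd1, and Peg3, chr7:6703892-6730462, 61.7% in the flank above, on the side of its annotated promoter. At Rtl1, chr12:109564900-109604418, 64.8% lay in the flank below, and at Dlk1, chr12:109452485-109463336, 52.0%. Ube3a, chr7:59228750-59310837, was the member besides Snrpn with most insertions in its body, 73.7%. That is below the body's 80.4% of the Ube3a locus, and 21.7% lay in the flank below the gene. The Snrpn and Ube3a loci also hold Snhg14, the Ndn and Magel2 loci a long RNA named Gm32061, and the Rtl1 locus Meg3, Rian and miRNAs, so an insertion in a member's locus can lie in another gene as well.

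Single positions were used again and again. At Zrsr1 the position most used, chr11:22982602, had 118 insertions in 32 animals, and at Peg10 chr6:4745649 had 69 in 23 animals. At Ndn chr7:62351005, 1077 bases past the higher gene end, had 50 insertions in 21 animals and 22 in N2a. The most used position of Snrpn, chr7:60390915, held 164 insertions in 33 animals, which was 4.52% of the insertions there. Along Snrpn, the 20 kb from 390 to 410 kb above the lower end held 21.7% of the Syn1Cre insertions, 23.1% of those in GFAPCre and 26.9% of those in Syn1Cre_SP1_P28. In N2a the densest 20 kb lay from 250 to 270 kb and held 55.7% of the insertions.

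**Figure D4:**
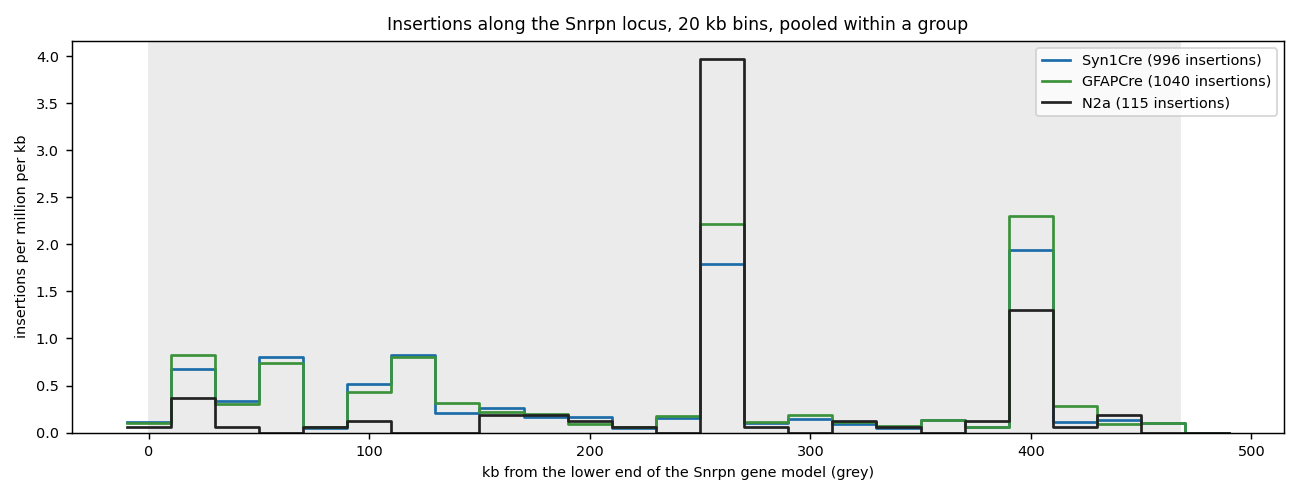
IPM per kilobase along the Snrpn locus in 20 kb bins, against distance in kb from the lower gene end, for Syn1Cre and GFAPCre (each pooled over 6 animals) and the pooled N2a table. The highest bin lies at 390 to 410 kb in Syn1Cre and GFAPCre and at 250 to 270 kb in N2a.

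N2a cells have no animals to be compared, and their pooled table is given as values. It gave 174.8 IPM at Ndn (95% exact interval 147 to 206), 111.6 at Magel2 (89.7 to 137), 60.7 at Dlk1 (44.9 to 80.3), 100.4 at Zrsr1 (79.7 to 125) and 215.7 at Ube3a (185 to 250). Snrpn, at 142.6 (118 to 171), lay within the range of the cortex animals, and Rtl1, at 28.5 (18.1 to 42.8), below every Syn1Cre animal. These intervals cover counting error only, and the 3 N2a experiments were pooled by the authors, so no spread between them could be had. At Dlk1 51.0% of the N2a insertions lay in the 2 kb below the lower gene end, on the side of its promoter, and at Zrsr1 64.2% lay 10 to 12 kb above the lower end.

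Rtl1 and Zrsr1 stood out in the strand recorded for each insertion, over the 43 animals with RNA-read tables. At Rtl1 1398 of 1486 insertions, or 94.1% (95% exact interval 92.8 to 95.2), were recorded on the plus strand. In the 29 animals with at least 10 insertions there, the share ran from 81.8% to 100%. Of 15634 loci with at least 100 insertions, 13 (0.0832%) were at least as one-sided, and the median locus had 49.6% on the plus strand. Zrsr1 had 85.0% (82.5 to 87.3), a level of one-sidedness that 3.30% of loci reached, and Peg10 66.4%. Snrpn had 49.3%, Magel2 44.9%, Peg3 42.9%, Ube3a 42.0%, Ndn 39.2% and Dlk1 29.4%. In BrokenHeart 5 of 7 Rtl1 insertions and in N2a 18 of 23 (78.3%) were on the plus strand. The sources used here do not state whether the strand is that of the transposon or of the read.

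**Figure D5:**
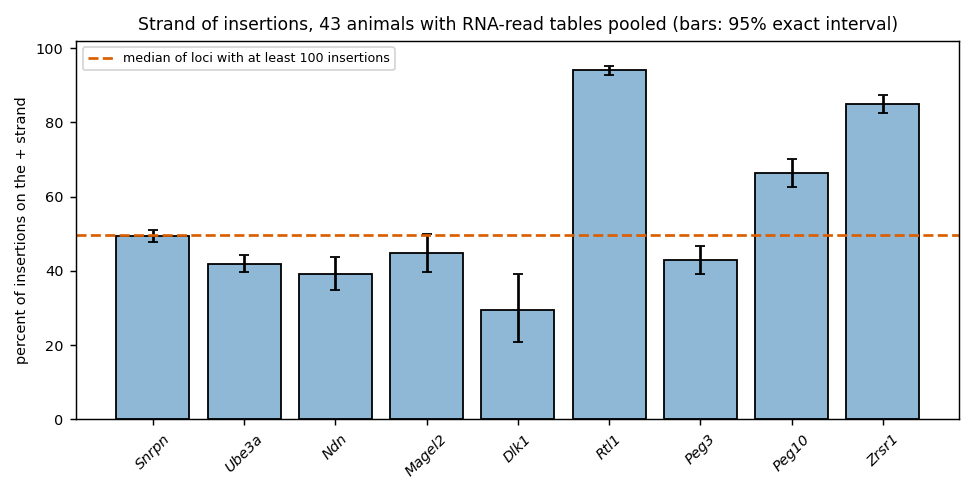
Percent of insertions recorded on the plus strand at each member, as bars pooled over the 43 animals with RNA-read tables, with 95% exact intervals and a dashed line at the median of all loci with at least 100 insertions. Rtl1 is at 94.1% and Zrsr1 at 85.0%, and that median is 49.6%.

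The other imprinted genes were taken from a list of 54, of which 52 were found in the gene table. At P28 5 of 31 tested were higher and 14 lower than in Syn1Cre, where 26.2% and 25.3% of all loci were, and at P10 3 of 34 were higher and 8 lower, where 20.1% and 20.7% of all loci were. Leaving out those whose loci overlap a member, the counts were 5 higher and 10 lower of 25 at P28 and 3 higher and 5 lower of 27 at P10. Gnas, which encodes the stimulatory G protein subunit, had 74.4 ± 10.5 IPM in Syn1Cre (SD, n = 6) and rose to 235 ± 14.3 at P28 (1.17, adjusted p = 8.7e-07, n = 4) and 309 ± 22.6 at P10 (1.52, adjusted p = 1.2e-06, n = 3). Inpp5f, a phosphoinositide phosphatase, rose by 1.09 at P28 (adjusted p = 2.9e-06), and Copg2, a coat protein gene, by 0.93 at P10 (adjusted p = 0.0029). The potassium channel gene Kcnq1 fell by 1.46 (adjusted p = 1.0e-06) and Atp10a by 1.47 (adjusted p = 9.2e-05) at P28. At P10 Kcnq1ot1, the antisense RNA in Kcnq1, fell by 2.14 (adjusted p = 4.7e-04), at 21.8 ± 22.3 IPM from 6 insertions. Nap1l5 differed by −2.24 (adjusted p = 0.0066), at 10.5 ± 18.2 from 3 insertions. Mest fell by 1.81 (adjusted p = 0.010), at 14.4 ± 12.5 from 4 insertions. Kcnq1ot1, Nap1l5 and Mest passed the filter at P10 only through Syn1Cre, so their calls support nothing further. Among those that overlap a member, Snhg14 fell by 1.39 at P28 (adjusted p = 1.9e-07) and fell by 2.18 at P10 (adjusted p = 8.9e-08), and Meg3 by 0.85 (adjusted p = 0.0036) and by 2.22 (adjusted p = 3.5e-04). Meg3 had 8 insertions at P10 and passed the filter there only through Syn1Cre, so its P10 call supports nothing further.

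The calls of that list in the other comparisons stand beside the share of all loci called in either direction. Against Syn1CreNeg, where that share was 31%, 1 of 25 was higher and 2 were lower in Syn1Cre. The higher gene was Usp29, which lies beside Peg3 (0.78, adjusted p = 5.3e-04, 200 ± 48.3 IPM against 119 ± 23.2, SD, n = 6 each), and the lower were Sgce, beside Peg10 (−0.47, adjusted p = 0.023), and Inpp5f (−0.42, adjusted p = 0.036). GFAPCre against GFAPCreNeg, with 8.19% of loci called, had 2 of 27 higher, Usp29 (0.57, adjusted p = 0.012) and Dcn (0.87, adjusted p = 0.045). In Rbp4Cre_TRAP, Ddc, the enzyme that makes dopamine from its precursor, was the 1 higher of 32 against Syn1Cre (1.96, adjusted p = 0.047), where 2.13% of loci were called, and 2 were lower. Those were Snhg14 (−1.36, adjusted p = 0.012), which overlaps Snrpn and Ube3a, and Meg3, at 0 against 527 insertions (adjusted p = 0.0011), whose locus overlaps that of Rtl1. Against GFAPCre, with 5.99% of loci called, 1 of 32 was higher, again Ddc (1.74, adjusted p = 0.039), and 3 were lower, Snhg14 (−1.45, adjusted p = 3.3e-04), Meg3, at 0 against 394 insertions (adjusted p = 4.1e-05), and Herc3 (−1.62, adjusted p = 0.024). BrokenHeart, with 39.8% of loci called, had 3 of 10 higher than C57bl6J and 1 lower, Usp29 (−1.53, adjusted p = 2.2e-04). Frontflip_GFAPCre and C57bl6J each had 2 higher and 0 lower, of 32 and 39, with 1.75% and 0.796% of loci called.

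The loci whose levels across 26 animals were most like each member were named by their Pearson correlation. It is a description only, since these animals differ in depth and title layout. For Rtl1 these were Ywhaq (0.85), Mtch2 (0.79) and Cdk5r2 (0.79), and for Peg3 3830406C13Rik (0.81), Spa17 (0.80) and Cubn (0.78). Ube3a was most like Nfkbia (0.77), Grhl1 (0.77) and Osbp (0.75), and Snrpn most like Dym (0.75), Cops7a (0.68) and Fuca2 (0.65). Zrsr1 was most like Lrp1 (0.75), Cdo1 (0.71) and Rpl39 (0.70), and Peg10 most like Ptger3 (0.72), Ttc39c (0.71) and Hsd17b1 (0.70). Ndn, Magel2 and Dlk1 were below the minimum level for this. None of the 18 loci named is another member.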

How the data were processed

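The deposited tables hold 1 insertion per row with its position, strand and count of raw reads, made by the authors with the libraries of an animal combined. The submitters' processing notes name Novoalign, Bowtie2 and mm10, without versions, and filters are not given in the sources used here. From these, insertions were counted here over each RefSeq gene of GRCm38 and 10 kb on either side, after BrokenHeart starts were moved by 1 base to match the other tables. Groups were taken from the sample titles. Some of the sequenced samples pool libraries of several animals.

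The counts were compared with edgeR 4.0.16 in R 4.3.3 (quasi-likelihood test, TMM factors on total insertions, filterByExpr), fitted on the 2 groups compared, with Benjamini-Hochberg adjustment over all loci and a threshold of 0.05. A zero group was set against a floor of 3 insertions over the group. DESeq2 1.42.0, total scaling, no filter, distinct positions, rows with at least 2 reads, gene bodies alone, the replicate block, the title layout and leaving out each animal were tried as alternatives. Intervals are exact binomial ones at 95% and cover counting error only. The fit was tested on simulated counts with 3-fold changes at 200 loci. It recovered 27% of them in Rbp4Cre_TRAP against Syn1Cre, 32% against GFAPCre, 39.5% at P10 against Syn1Cre and 65% to 93% in the other comparisons. False calls were 10% of those called in Rbp4Cre_TRAP against Syn1Cre, 7.46% in C57bl6J against Syn1Cre and 1.78% to 6.40% in the others. Where recovery was low, a member not called can still differ. All 9 members are named, and at most 3 other imprinted genes per direction and comparison by lowest adjusted p, with those that overlap a member given as neighbours. Members and lists were chosen with earlier results of these data known.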

Additional observations from a re-analysis of the deposited data

Results flagged for a closer look

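Peg10 had 35.1 insertions per 1000000 (IPM) in Rbp4Cre_TRAP animal 1, from 2 insertions, while the other 3 animals of the group were at 0. Dlk1 had 25.0 in Rbp4Cre_TRAP animal 3, from 1 insertion, with the others at 0. These were the 2 outlying animals among 54 groups of 4 to 10 animals examined, a test that chance passes in about 1 of 20 groups, and the shallow tables of that group turn a single insertion into such a value.

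The pooled N2a table, which enters no comparison, was above the highest of the 26 animals of C57bl6J, Syn1Cre, Syn1CreNeg, GFAPCre and GFAPCreNeg at 6 members, and at 4 of them its whole 95% exact interval was. Ndn had 174.8 IPM (95% exact interval 147 to 206) against a highest animal of 47.0. Magel2 had 111.6 (89.7 to 137) against 31.6, Dlk1 60.7 (44.9 to 80.3) against 9.30, and Zrsr1 100.4 (79.7 to 125) against 65.1. At the other two the interval reached below the highest animal, with Ube3a at 215.7 (185 to 250) against 205.1 and Peg10 at 66.9 (50.3 to 87.3) against 51.3.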

How the results depend on the processing

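Of the comparisons of single members under an alternative, 1162 kept direction and side of the threshold, 52 lost and 27 gained a call, 69 values that were called in neither setting changed sign, and 2 called values changed sign. The 2 were Ube3a near gene ends relative to total insertions without a filter, 0.93 at P28 (adjusted p = 0.087) and 0.67 at P10 (adjusted p = 0.775). DESeq2 gave no adjusted p to 6 of the members tested in Rbp4Cre_TRAP against Syn1Cre, Rtl1 among them, 3 against GFAPCre (Ndn, Peg3 and Peg10), 4 in Frontflip_GFAPCre against GFAPCre and 1 in each of 3 other comparisons, and its counts leave them out.

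The share of all loci called moved with the setting too. Without the filter it was 14.6% for Syn1Cre against Syn1CreNeg, 3.74% for Rbp4Cre_TRAP against Syn1Cre and 6.69% for BrokenHeart. In the earlier layout it was 13.1% for Syn1Cre against GFAPCre and 53.6% at P10. Where no share is given here or above, a moved count cannot be told from a fit that calls more or fewer loci. Counts of members called that moved by over 1.5 times are these. Syn1Cre against GFAPCre (0) went to 2 in the earlier title layout and 0 to 1 with each animal left out. Syn1Cre against Syn1CreNeg (1) went to 0 relative to total insertions, with distinct positions, with gene bodies alone, in the later title layout and with the layout as a block, to 3 without the filter, and to 0 to 2 with each animal left out. DESeq2 also called 1 member there, but Ndn, not Ube3a. Syn1Cre_SP1_P28 (4) went to 2 with gene bodies alone, and near gene ends without a filter to 2 under either scaling; with the filter no member was tested near the ends. Syn1Cre_SP1_P10 (4) went to 1 with gene bodies alone, to 7 in the earlier layout, and near gene ends to 0 with TMM factors, 2 with TMM factors and no filter, 2 relative to total insertions and 2 relative to total insertions without a filter. Syn1Cre_SP1_P28 against Syn1Cre_SP1_P10 (0) went to 1 with at least 2 reads. Rbp4Cre_TRAP against Syn1Cre (2) went to 1 relative to total insertions, 0 with DESeq2, 4 without the filter, 4 with distinct positions, 1 with at least 2 reads, 0 with gene bodies alone, 1 in the earlier layout and 1 to 4 with each animal left out. Against GFAPCre (4) it went to 1 with gene bodies alone and to 2 to 4 with each animal left out, and BrokenHeart (0) to 3 without the filter and 0 to 1 with each animal left out. C57bl6J against Syn1Cre (0) went to 2 in the earlier layout. Smaller moves were those of P28 to 5 relative to total insertions and 3 with distinct positions, of P10 to 3 with at least 2 reads and of Rbp4Cre_TRAP against GFAPCre to 3 relative to total insertions and with DESeq2. The counts near gene ends were added after the positions had been seen. Gene bodies hold fewer insertions; the cause of the other shifts was not tested.

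Replicate numbers did not pair the animals, with correlations between same-numbered animals from −0.42 to 0.32. With the replicate block, the count went to 0 in Syn1Cre against Syn1CreNeg (Ube3a −0.47, adjusted p = 0.051), to 1 in Rbp4Cre_TRAP against Syn1Cre (Ube3a −2.01, adjusted p = 0.060) and to 2 in C57bl6J against Syn1Cre (Rtl1 −0.75, adjusted p = 4.8e-05; Peg10 0.71, adjusted p = 0.038), and at P10 Ndn (−1.59, adjusted p = 0.021) and Magel2 (1.11, adjusted p = 0.044) were added. It changed no other call of a member. Many values in Rbp4Cre_TRAP, BrokenHeart and P10 rest on few insertions, which limits what can be said of them.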
